A study of Mus musculus with 7 samples.

Results

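The 10 genes described here move calcium inside skeletal muscle fibres: Cacna1s, Ryr1, Jph1, Trdn, Casq1, Casq2, Atp2a1, Atp2a2, Sln and Pvalb. They were taken as a named list from the 56854 gene identifiers present in the count files of all 7 libraries, and all 10 had enough counts to be tested. The symbols stand in the Tnc-/- files, and the wild-type files were read at the same Ensembl identifiers. Each library came from the whole shoulder joint of 1 mouse, collected 2 weeks after surgical repair of the supraspinatus tendon, which belongs to the rotator cuff, in the left shoulder. The mice were wild type (n = 3) or Tnc-/- (n = 4), that is, with deletion of the gene for tenascin C, a matrix glycoprotein of healing tendon. Both genotypes had the operation, and no unoperated shoulder was analysed here. The strain, age and sex of the mice and the design of the Tnc allele are not given in the sources used here. A whole joint holds muscle beside tendon, bone, marrow and cartilage, so in these bulk samples fewer muscle fibres and less RNA per fibre cannot be told apart.

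When a nerve excites a muscle fibre, the voltage sensor in the surface membrane (Cacna1s) pulls open the release channel of the sarcoplasmic reticulum (Ryr1), and calcium floods the contractile apparatus. Junctophilin (Jph1) holds the membranes of the junction together, triadin (Trdn) ties the release channel to its store, and the calsequestrins (Casq1 in fast fibres, Casq2 in slow fibres and heart) bind calcium inside the store. Relaxation follows when calcium pumps (Atp2a1 in fast fibres; Atp2a2 in slow fibres, heart and most other cells) return the calcium, when parvalbumin (Pvalb) buffers it in the cytosol of fast fibres, and sarcolipin (Sln) restrains the pumps.

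Libraries held 13464057 to 18503833 gene counts in the wild type and 19250322 to 28191101 in Tnc-/-. Tnc itself, the targeted gene, was at 437, 292 and 327 CPM in the wild type (CPM, counts per M of the scaled library size; M, mega) and at 33.4 to 55.0 CPM in the 4 Tnc-/- libraries. The log2 difference between genotypes was -3.08 ± 0.21 (SE, adjusted p = 0.00028 in edgeR). The genotypes were counted in separate runs, as the form of their files shows, and run and genotype cannot be told apart. Wild-type libraries 2 and 3 stood apart from the other 5. The summed level of 2010 odorant and pheromone receptor genes, which a joint should hardly express, was 1564 and 1112 counts per M of the unscaled total there, against 89.8 in wild-type library 1 and 33.3 to 41.5 in Tnc-/-. Of the marker lists, the erythroid genes summed to 4375 to 8462 CPM in the wild type and 12378 to 24586 CPM in Tnc-/-, and the neutrophil genes to 2602 to 5392 and 5993 to 10186 CPM. The part of the erythroid and neutrophil differences in the results on calcium genes was not tested. Of 7 heart markers, Nppa, Nppb, Nkx2-5 and Myl7 had 0 counts in all 7 libraries, and the list summed to 29.8 to 38.6 CPM in the wild type and 16.2 to 42.8 CPM in Tnc-/-. Alas2 of the erythroid list also had 0 counts in all 7, so these genes are given as listed at 0 counts and not as unexpressed.

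The promoters of 6 of the 10 genes were matched in RefSeq (build GRCm38.p6, 250 bases before to 50 bases after the start of transcription). Those of Atp2a2, Sln, Jph1 and Trdn were not matched. Shown are the promoters of the voltage sensor and the release channel, whose messages passed the test, and of both calsequestrins, a fast and slow pair whose messages did not. Capitals mark the E-box CANNTG, the letters that myogenic factors of the MyoD family read, and in Casq2 also the MEF2 motif.
Ryr1, chr7:29125102-29125401, minus strand: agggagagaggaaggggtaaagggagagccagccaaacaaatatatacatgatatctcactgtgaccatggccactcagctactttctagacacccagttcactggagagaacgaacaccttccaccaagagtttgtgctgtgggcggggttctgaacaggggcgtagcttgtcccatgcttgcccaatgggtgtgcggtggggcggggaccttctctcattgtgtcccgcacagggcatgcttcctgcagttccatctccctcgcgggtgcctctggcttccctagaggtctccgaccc
Cacna1s, chr1:136052561-136052860, plus strand: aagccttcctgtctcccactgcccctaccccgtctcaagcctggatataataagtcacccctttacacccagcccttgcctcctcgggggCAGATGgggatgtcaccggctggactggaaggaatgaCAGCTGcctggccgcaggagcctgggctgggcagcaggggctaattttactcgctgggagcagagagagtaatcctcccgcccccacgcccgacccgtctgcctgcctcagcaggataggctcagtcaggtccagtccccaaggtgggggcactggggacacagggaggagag
Casq1, chr1:172219846-172220145, minus strand: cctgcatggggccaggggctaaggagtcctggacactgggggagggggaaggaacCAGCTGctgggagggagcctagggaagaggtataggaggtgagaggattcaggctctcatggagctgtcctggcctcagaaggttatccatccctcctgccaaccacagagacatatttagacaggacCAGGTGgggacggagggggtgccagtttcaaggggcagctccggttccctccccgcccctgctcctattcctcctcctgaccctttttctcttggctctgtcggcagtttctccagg
Casq2, chr3:102086165-102086464, plus strand: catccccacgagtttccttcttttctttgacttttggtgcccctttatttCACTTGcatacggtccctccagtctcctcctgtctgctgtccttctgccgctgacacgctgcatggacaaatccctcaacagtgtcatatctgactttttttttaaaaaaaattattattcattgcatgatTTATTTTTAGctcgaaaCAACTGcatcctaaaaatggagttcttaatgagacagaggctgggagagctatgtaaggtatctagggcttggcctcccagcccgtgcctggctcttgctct
The Cacna1s promoter held 2 E-boxes, starting 160 and 123 bases before the start site. Casq1 held 2, at 195 and 67 bases before it, and Casq2 held 2, at 200 and 52 bases before it, with a MEF2 match at 69 bases before it. The Ryr1 promoter held no E-box in this window and had 2 copies of GGGCGG, of which Cacna1s and Casq1 had 1 each. Both strands were searched, and no E-box overlapped a MEF2 match. Over 32851 promoters of the same length, 72.3% held an E-box, 35.7% held GGGCGG and 3.19% held the MEF2 motif, so an E-box is common in any promoter and a MEF2 match is not. Of the other matched promoters, that of Atp2a1 had 1 E-box, and of the 2 listed for Pvalb 1 had a MEF2 match and the other had 2 E-boxes. The matches describe letters and not bound factors.

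Of the 10 calcium genes, 2 rose in Tnc-/- and none fell at an adjusted p under 0.05 in edgeR. The 2 that rose were Ryr1, 2.43 times the wild-type level, and Cacna1s, 1.59 times. Over all 17791 genes tested, 29.0% passed the same threshold, 10.3% as higher and 18.7% as lower in Tnc-/-. Lower calls were 64.5% of all calls, 82.7% with library totals in place of TMM scaling, 43.2% without wild-type libraries 2 and 3 and 27.3% in limma voom. The 2 of 10 called here was not above the share called across the transcriptome. At an unadjusted p under 0.05 there were 5 of the 10, namely Ryr1, Cacna1s, Sln, Jph1 and Pvalb, against 42.3% of all genes. The estimates were positive for 7 genes and negative for 3 (6 positive with library totals), with a median log2 fold change of 0.39 beside a median of -9.0e-04 over all genes. The median of the 10 was 0.61 without wild-type library 1 (all genes -0.16) and 0.13 without wild-type libraries 2 and 3 (all genes 0.027). With the receptor background as a covariate it was 0.038, beside 0.043 over all genes. The call on Cacna1s and not that on Ryr1 was lost when any single library other than wild-type library 1 was left out. The Cacna1s estimate was then 0.56 to 0.74, with adjusted p-values from 0.0523 to 0.141. Without wild-type library 1, 8 of the 10 were called, all but Casq2 and Trdn, and 64.2% of all genes. Without wild-type libraries 2 and 3, which leaves 1 wild-type library assumed to vary like the Tnc-/- group, 0 of the 10 were called in edgeR, with 2 at an unadjusted p under 0.05 and 4.45% of all genes called.

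**Figure D1:**
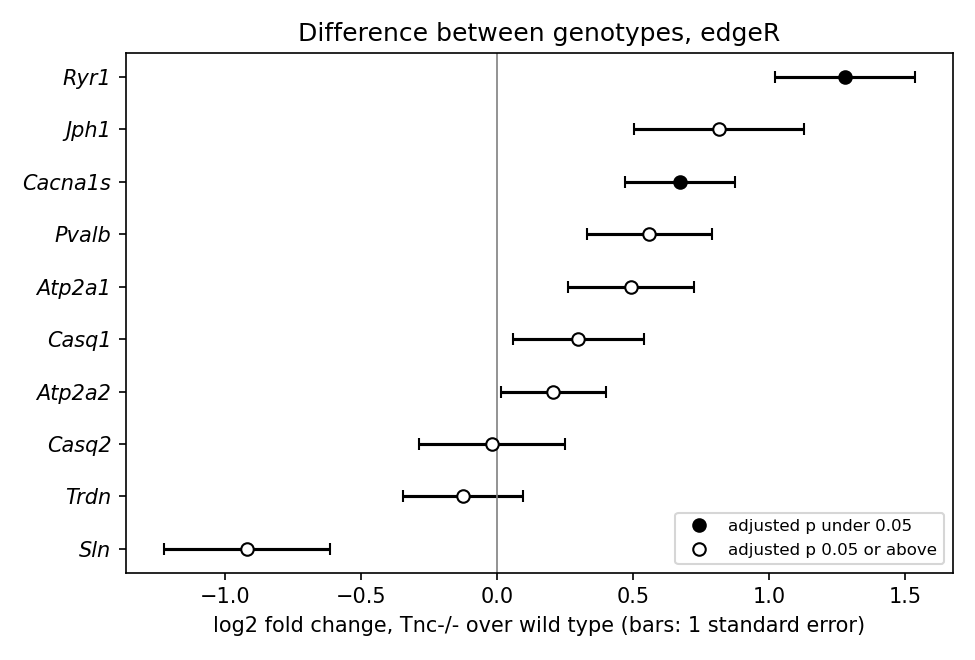
Log2 fold change of each of the 10 calcium genes, Tnc-/- over wild type, from edgeR on 3 wild-type and 4 Tnc-/- libraries, with bars of 1 standard error. Filled points, Ryr1 at 1.28 and Cacna1s at 0.67, had an adjusted p under 0.05, and Sln at -0.92 was the lowest.

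The release channel gene Ryr1 (ENSMUSG00000030592) had the lowest adjusted p of the 10. It stood at 879.6, 501 and 559 CPM in the 3 wild-type libraries, in the order 1 to 3 kept throughout, and at 1252, 1930.0, 1682 and 1416 CPM in Tnc-/- libraries 1 to 4. Every Tnc-/- library lay above every wild-type library. The means were 647 ± 204 (SD, n = 3) and 1570.0 ± 298 CPM (SD, n = 4), and the log2 fold change was 1.28 ± 0.26 (SE; adjusted p = 0.00992, edgeR). Of the 19 other ways of fitting the data, 17 kept it past the threshold. The exceptions were the fit without wild-type libraries 2 and 3, with a log2 fold change of 0.83 (adjusted p = 0.112), and the fit with the receptor background as a covariate, at 0.61 (adjusted p = 0.368). Wild-type library 1, the one with the lowest background of its group, was the highest of its group for Ryr1. The background was higher in all 3 wild-type libraries than in any Tnc-/- library. The covariate and genotype can therefore not be fully separated, and a call lost in that fit does not tell them apart.

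Cacna1s (ENSMUSG00000026407), the pore subunit of the L-type channel that senses voltage, was at 237, 174 and 161 CPM in the wild type and 247, 371, 328 and 269.8 CPM in Tnc-/-. The groups did not overlap, but wild-type library 1 came close to Tnc-/- library 1. The means were 191 ± 40.8 and 304 ± 56.1 CPM (SD, n = 3 and n = 4), and the log2 fold change was 0.67 ± 0.20 (SE; adjusted p = 0.0371, edgeR). Only 6 of the 19 other fits kept this call. Without wild-type libraries 2 and 3 the log2 fold change was 0.35 (adjusted p = 0.381). In the mouse annotation used for overlaps (GENCODE M21), 19.98% of the Cacna1s exon bases also belong to the predicted gene Gm37759, where unstranded counting could not separate the reads.

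Neither junction protein gene passed the test. Jph1 (ENSMUSG00000042686) was the scarcest of the 10, at 10.9, 11.6 and 5.41 CPM in the wild type and 12.5, 16.0, 19.7 and 17.2 CPM in Tnc-/-. All 4 Tnc-/- values lay above the wild-type values, with the lowest close to the wild-type maximum. The log2 fold change of 0.82 ± 0.31 (SE) missed the threshold (edgeR adjusted p = 0.0796). Trdn (ENSMUSG00000019787) was at 427, 294 and 333 CPM in the wild type and 286, 439.7, 308 and 255 CPM in Tnc-/-. Its ranges overlapped, and its log2 fold change was -0.12 ± 0.22 (SE, edgeR adjusted p = 0.701). In the libraries where the release channel rose, the estimate for its anchor was smaller than its own standard error.

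Neither calsequestrin passed the test. Casq1 (ENSMUSG00000007122), the main calcium binder of the fast fibre store, was at 841, 686 and 571 CPM in the wild type and 685, 1203, 816 and 738 CPM in Tnc-/-. Tnc-/- library 2 was the highest, and the other 3 lay within the wild-type range, for a log2 fold change of 0.30 ± 0.24 (SE; adjusted p = 0.377, edgeR). It was 0.09 without Tnc-/- library 2 and 0.55 without wild-type library 1 (adjusted p = 0.0475). Casq2 (ENSMUSG00000027861) was at 46.9, 38.2 and 29.7 CPM in the wild type and 29.5, 48.6, 25.4 and 47.8 CPM in Tnc-/-. Its Tnc-/- libraries formed a high pair and a low pair that enclosed the wild-type values. The log2 fold change was -0.02 ± 0.27 (SE, edgeR adjusted p = 0.966). Casq2 is also a heart gene. Of the 7 heart markers, 4 had 0 counts, Tnnt2 was at 23.9 to 24.7 CPM in the wild type and 11.0 to 38.1 CPM in Tnc-/-, and Tnni3 at 1.21 to 1.66 and 2.86 to 3.19 CPM. Myh6 was called lower (adjusted p = 0.0214, edgeR), with 13.0 and 12.1 CPM in wild-type libraries 2 and 3, which carry the receptor background, 3.65 CPM in wild-type library 1 and 1.52 to 3.40 CPM in Tnc-/-. The 0 counts are not taken as absence, since Alas2, an erythroid gene, was also listed at 0 counts in every library. The part of heart tissue in the Casq2 level was not tested.

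Neither of the 2 pumps passed the test. Atp2a1 (ENSMUSG00000030730), the fast fibre pump, was at 4033, 3088 and 3017 CPM in the wild type and 3804, 6062, 4849 and 4280.5 CPM in Tnc-/-. Wild-type library 1 lay above Tnc-/- library 1, and the log2 fold change was 0.49 ± 0.23 (SE, edgeR adjusted p = 0.141). In GENCODE M21, 21.9% of its exon bases are shared with its neighbour Rabep2. Atp2a2 (ENSMUSG00000029467), the slow fibre and housekeeping pump, was at 393, 232 and 264 CPM in the wild type and 319, 349, 348 and 351 CPM in Tnc-/-. Its highest value was that of wild-type library 1, and its log2 fold change of 0.21 ± 0.19 (SE; adjusted p = 0.451, edgeR) turned to -0.21 without wild-type libraries 2 and 3 and to -0.02 when libraries were scaled by their totals. Without wild-type library 1 it was 0.56 (adjusted p = 0.00417).

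Sln (ENSMUSG00000042045), the small membrane peptide that lowers pump efficiency, was the 1 gene of the 10 with lower values in every Tnc-/- library. It was at 34.0, 43.7 and 27.9 CPM in the wild type and 21.1, 22.1, 9.18 and 22.0 CPM in Tnc-/-. Tnc-/- libraries 1, 2 and 4 lay close together, and Tnc-/- library 3 lay well below them. The means were 35.2 ± 7.93 and 18.6 ± 6.28 CPM (SD, n = 3 and n = 4), and the log2 fold change of -0.92 ± 0.31 (SE) just missed the threshold (edgeR adjusted p = 0.052). Across the 19 other fits the estimate stayed between -1.17 and -0.70, and 7 of them passed the threshold. Without wild-type libraries 2 and 3 it was -0.87 (adjusted p = 0.162).

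Pvalb (ENSMUSG00000005716), the cytosolic buffer that speeds relaxation of fast fibres, was at 2424, 2671 and 2068 CPM in the wild type and 2821, 4686, 3429.8 and 3138 CPM in Tnc-/-. All 4 Tnc-/- libraries were above the wild type, and Tnc-/- library 2 was far above the rest. The log2 fold change of 0.56 ± 0.23 (SE) missed the threshold (edgeR adjusted p = 0.0977). It was 0.53 without wild-type libraries 2 and 3, nearly as large, with an adjusted p of 0.339.

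**Figure D2:**
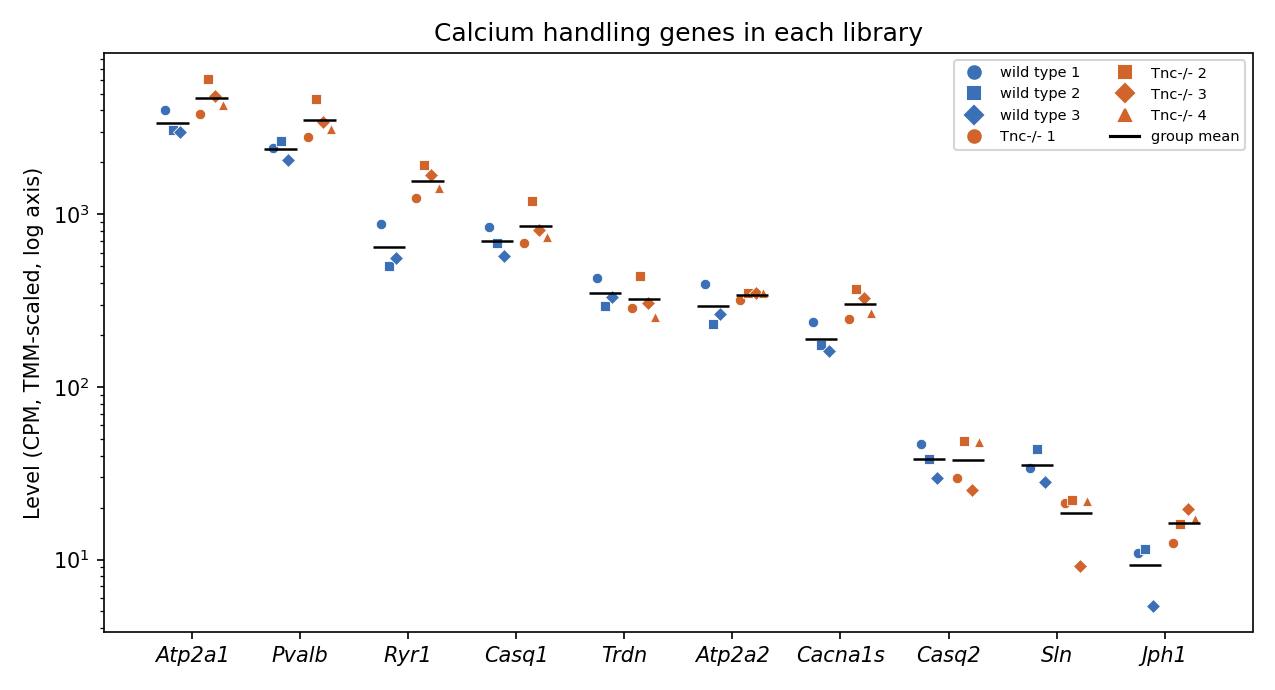
Level of the 10 calcium genes in each library, in CPM on a log axis, with 1 marker per library and bars at the group means. Ryr1, Cacna1s, Jph1 and Pvalb have every Tnc-/- library above the wild type, Sln has every Tnc-/- library below it, and the other 5 overlap.

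Counted by separation alone, 5 of the 10 genes had groups that did not overlap, 4 higher and 1 lower in Tnc-/-. Among all tested genes, 35.1% had such groups, 17.7% higher and 17.4% lower. The libraries also moved together across the list. Tnc-/- library 2 had the highest value of all 7 for 7 of the 10 genes, all but Atp2a2, Sln and Jph1, and Tnc-/- library 1 was the lowest of its group for 7. Within the wild type, library 1 was the highest for 7 genes and library 3 the lowest for 7.

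Per length of exon, levels can be set roughly side by side between genes. The length used is that of all annotated exons merged in GENCODE M21, not that of the transcript expressed. In the wild type the order was Pvalb at 2294 ± 292 CPM per kb of exon, Atp2a1 at 972 ± 163 and Casq1 at 359 ± 69.4 (SD, n = 3), each clear of the next. Next came a cluster of Atp2a2, Trdn, Ryr1, Cacna1s and Sln, from 48.7 down to 26.7 CPM per kb, in which each overlapped its neighbour. Casq2 at 14.0 and Jph1 at 1.86 CPM per kb closed the order. In Tnc-/- the same 3 genes led, with Pvalb at 3380.2 ± 785 CPM per kb (SD, n = 4), and Ryr1 at 71.9 ± 13.7 CPM per kb moved from the sixth place to the fourth. The lowest library of Ryr1 there (57.3 CPM per kb) still overlapped the highest library of Atp2a2 (57.7 CPM per kb). Sln and Casq2 overlapped in Tnc-/- and did not in the wild type.

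Because the amount of muscle in a joint can differ between mice, the calcium genes were also read against the fibres' own genes. The reference was the mean log2 CPM of 26 fast and general fibre genes, none of them a calcium gene. That mean was 9.78 ± 0.31 in the wild type (SD, n = 3) and 10.34 ± 0.30 in Tnc-/- (SD, n = 4), with overlapping groups. All 26 had positive estimates and 4 rose past the threshold, Actn3, Mybpc2, Myh4 and Tcap, a share of 15.4% against 29.0% of all genes. With library totals 22 of the 26 were positive, and without wild-type libraries 2 and 3 it was 17, with 0 called in edgeR. Without wild-type library 1, 21 were called, and without any other single library 1 or 2. Of the 3 most abundant of the list, Acta1 (skeletal actin) had a log2 fold change of 0.23 ± 0.25 (SE; adjusted p = 0.522, edgeR), Myh4 (the fastest myosin) 1.18 ± 0.22 (adjusted p = 0.00856) and Tnnt3 (fast troponin T) 0.78 ± 0.26 (adjusted p = 0.0516). Of 6 tested slow fibre genes, 1 rose, the slow light chain Myl2, and 0 were called in edgeR when any single library other than wild-type library 1 was left out, against 5 without that library. The mean log2 CPM of the slow genes was 6.01 ± 0.60 in the wild type (SD, n = 3) and 6.85 ± 0.08 in Tnc-/- (SD, n = 4), higher in all 4 Tnc-/- libraries, though wild-type library 1 at 6.70 came close to the lowest of them at 6.76. With the background covariate, which was higher in every wild-type library, 0 of the 6 slow genes and 15 of the 26 fast genes had positive estimates. The 2 most abundant slow genes, Tpm3 and Tnnt1, had log2 fold changes of 0.54 ± 0.20 (adjusted p = 0.0711) and 0.47 ± 0.23 (adjusted p = 0.146). Genes of regenerating fibres summed to 224 to 319.7 CPM in the wild type and 144 to 361 CPM in Tnc-/-, with 1 of 7 called, Ncam1, as lower. In wild-type libraries 2 and 3, Ncam1 stood at 85.4 and 73.6 CPM, and in wild-type library 1 at 39.1 CPM, within the Tnc-/- range of 30.8 to 40.5 CPM.

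Set against that reference, the 10 genes spread to both sides. Ryr1 lay 0.74 higher in Tnc-/- on the log2 scale, with library values of -0.36, -0.65 and -0.46 in the wild type and 0.21, 0.14, 0.43 and 0.23 in Tnc-/-. All 4 Tnc-/- values were above 0 and all 3 wild-type values were below it. Trdn lay 0.70 lower, with values of -1.40, -1.42 and -1.20 in the wild type against -1.92, -1.99, -2.02 and -2.25 in Tnc-/-. The 2 groups of Trdn, which overlapped in CPM, were apart on this scale.

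Sln lay 1.54 lower, from -5.04, -4.17 and -4.77 in the wild type to -5.68, -6.30, -7.07 and -5.78 in Tnc-/-. Casq1 lay 0.28 lower without overlap. Atp2a2 lay 0.32 lower, and its groups all but met, at -1.762 in wild-type library 2 and -1.765 in Tnc-/- library 1. Without Tnc-/- library 2 the Atp2a2 difference was -0.19. Each of these 5 genes had an exact two-sided permutation p of 0.0571 over 35 arrangements, the smallest that doubling the smaller tail can give, and 0.114 after Benjamini-Hochberg adjustment over the 10 genes. Against wild-type library 1 alone, the Tnc-/- mean differed by 0.61 for Ryr1, -0.64 for Trdn, -1.16 for Sln, -0.21 for Casq1 and -0.41 for Atp2a2. For the other 5 genes it differed by -0.58 (Casq2), 0.36 (Jph1), 0.30 (Pvalb), 0.13 (Cacna1s) and 0.0065 (Atp2a1). Some of these are larger than that of Casq1, so this comparison does not set the first 5 apart. On this scale 31.7% of all tested genes had groups that did not overlap, against 5 of these 10. The other 5 overlapped: Cacna1s differed by 0.11, Jph1 by 0.30, Pvalb by -0.02, Atp2a1 by -0.08 and Casq2 by -0.62, with adjusted exact permutation p-values of 0.143 to 0.743. With single libraries left out, Jph1 ranged from 0.06 (without wild-type library 3) to 0.58 (without wild-type library 2), Cacna1s from 0.05 (without Tnc-/- library 3) to 0.15, Atp2a1 from -0.13 (without wild-type library 1) to -0.06 and Pvalb from -0.19 (without wild-type library 1) to 0.14 (without wild-type library 2). For Cacna1s, called higher in CPM, the SD on this scale was 0.04 in the wild type and 0.13 in Tnc-/-.

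**Figure D3:**
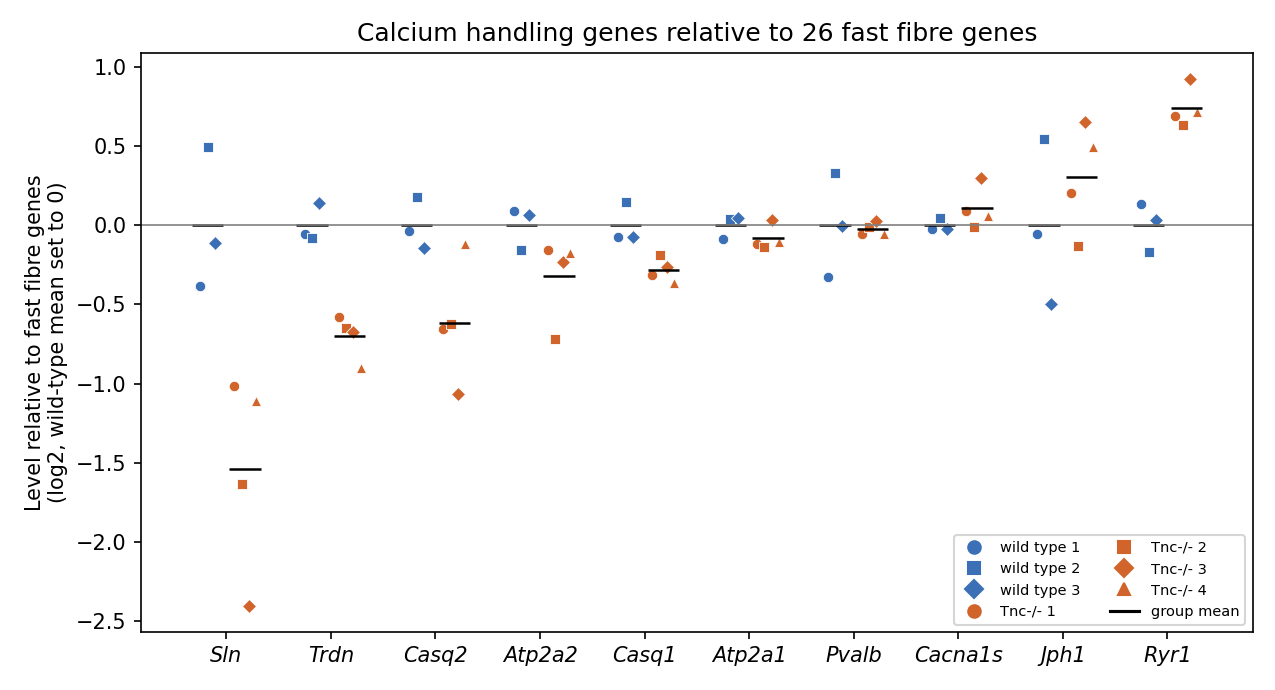
Level of each calcium gene relative to the mean of 26 fast fibre genes, in log2 units, with the wild-type mean of each gene set to 0. Markers are libraries and bars are group means. Sln, Trdn, Atp2a2 and Casq1 lie below the wild type in all 4 Tnc-/- libraries, Ryr1 lies above it in all 4, and the other 5 overlap.

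How closely each gene followed the fibre genes across the 7 libraries is a description only, since all points share library and genotype. Pearson's r with the fibre mean was 0.986 for Atp2a1, 0.967 for Cacna1s, 0.928 for Ryr1, 0.905 for Casq1 and 0.884 for Pvalb. It was 0.767 for Atp2a2, 0.726 for Jph1, 0.410 for Trdn, 0.393 for Casq2 and -0.492 for Sln. The fast fibre pump followed the fibre genes most closely, and Sln ran the other way.

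Paralogues were compared within each library. The count of the fast pump over the slow pump (Atp2a1/Atp2a2) was 10.3, 13.3 and 11.4 in the wild type and 11.9, 17.4, 13.9 and 12.2 in Tnc-/-. The groups overlapped, with a log2 difference of 0.24 (exact two-sided permutation p = 0.229). For Casq1/Casq2 the ratio was 17.9, 17.9 and 19.2 in the wild type and 23.2, 24.7, 32.0 and 15.4 in Tnc-/-, also with overlap (log2 difference 0.33, exact permutation p = 0.229). Tnc-/- libraries 1, 2 and 3 lay above the wild type here and library 4 lay below it.

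The other pairs weighed a buffer or an inhibitor against a pump. Pvalb/Atp2a2 had means of 8.22 and 10.1 and overlapped (log2 difference 0.30, exact permutation p = 0.400). With single libraries left out, this difference ran from 0.09 (without wild-type library 1) to 0.54 (without wild-type library 2). That of Atp2a1/Atp2a2 ran from 0.12 (without Tnc-/- library 2) to 0.34, and that of Casq1/Casq2 from 0.17 (without Tnc-/- library 3) to 0.53 (without Tnc-/- library 4). Sln/Atp2a1 was 0.00846, 0.0142 and 0.00930 in the wild type and 0.00558, 0.00366, 0.00192 and 0.00516 in Tnc-/-. Every Tnc-/- library held less inhibitor message per pump message than any wild-type library, with a log2 difference of -1.46 (exact two-sided permutation p = 0.0571, again the smallest this test can give, and 0.229 adjusted over the 4 ratios). The difference stayed between -1.65 and -1.14 under the 9 alternatives for this ratio and was -1.17 against wild-type library 1 alone. Against that library it was 0.42 for Atp2a1/Atp2a2, 0.37 for Casq1/Casq2 and 0.71 for Pvalb/Atp2a2.

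The wider list of calcium genes covered other channel subunits, junction proteins, calmodulins and their kinases, store-entry and mitochondrial channels. Of 47 listed, 45 could be tested, and 8 were called, 5 higher and 3 lower, a share of 17.8% against 29.0% of all genes. Estimates were positive for 32 and negative for 13, but positive for 19 with library totals. The calls numbered 27 without wild-type library 1 and 2 without wild-type libraries 2 and 3. Pln, phospholamban of slow fibres and heart, had 0 counts in all 7 libraries, and Strit1 was under the filter. Tnnc1, the slow troponin C, likewise had 0 counts, although other slow genes were present, and Tnnc2 of the reference list reached no more than 2.34 CPM. Pln and Tnnc1 are therefore given as listed at 0 counts and not as unexpressed.

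Among those that rose was the junctophilin partner Jph2, at 288, 241 and 189 CPM in the wild type and 359.7, 566, 457 and 446 CPM in Tnc-/-, with a log2 fold change of 0.93 ± 0.21 (SE; adjusted p = 0.0131, edgeR). Its groups did not overlap. The calmodulin kinases that rose were Camk2a (0.61 ± 0.16, adjusted p = 0.0237), Camk2b (0.83 ± 0.23, adjusted p = 0.0264) and Camk2g (0.66 ± 0.15, adjusted p = 0.0140), while their relative Camk2d fell by 0.53 ± 0.13 (adjusted p = 0.0155). Camk2a was almost the same in the 3 wild-type libraries, 89.6 to 91.0 CPM, and 112 to 172 CPM in Tnc-/-.

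Atp2a3, a pump of blood and endothelial cells rather than fibres, had the steepest rise of the list at 1.41 ± 0.32 (SE, edgeR adjusted p = 0.0131). It stood at 111, 51.0 and 67.4 CPM in the wild type and 278, 143, 225 and 168 CPM in Tnc-/-. Tnc-/- library 1 was the highest for this pump and the lowest of its group for 7 of the 10 calcium genes. Erythroid and neutrophil sums, given above, were higher in every Tnc-/- library, and their part in the Atp2a3 value was not tested. Leaving out wild-type library 3 alone ended each of these 6 calls, with adjusted p-values from 0.058 to 0.106 and log2 fold changes of 0.62 for Camk2a, 0.76 for Camk2b, 0.64 for Camk2g, -0.41 for Camk2d, 0.79 for Jph2 and 1.33 for Atp2a3. Camk2a and Camk2b were also lost without wild-type library 2, Tnc-/- library 2 or Tnc-/- library 3, Camk2b without Tnc-/- library 1, and Camk2d without Tnc-/- library 3. In limma voom, Camk2a, Camk2b and Camk2d missed the threshold (adjusted p = 0.064, 0.0589 and 0.0529). Without wild-type libraries 2 and 3, none of these 6 kinase, pump and junctophilin calls held, with adjusted p-values from 0.126 to 0.298. The log2 fold changes were then 0.60 for Camk2a, nearly as large as in the full fit, 0.66 for Jph2, 0.87 for Atp2a3, 0.42 for Camk2b, 0.38 for Camk2g and -0.35 for Camk2d.

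The ryanodine receptor paralogues Ryr2 (heart and neurons) and Ryr3 (low in many tissues) gave the opposite sign to Ryr1. Ryr2 was at 4.29, 100.3 and 86.1 CPM in the wild type and 1.26, 0.223, 0.896 and 0.471 CPM in Tnc-/-. Ryr3 was at 3.65, 98.4 and 64.5 CPM in the wild type and 0.259, 0.557, 0.448 and 0.942 CPM in Tnc-/-. Both genes were high in wild-type libraries 2 and 3, the ones that carried the receptor background, and wild-type library 1 lay between. The fitted log2 fold changes were -6.42 ± 1.03 for Ryr2 (SE, edgeR adjusted p = 0.00702) and -6.67 ± 1.03 for Ryr3 (adjusted p = 0.00680). Without wild-type libraries 2 and 3 they shrank to -2.55 (adjusted p = 0.0435) and -2.74 (adjusted p = 0.0319). Both genes are long, spanning 554 kb for Ryr2 and 586 kb for Ryr3, against 122 kb for Ryr1. With the receptor background as a covariate they were -1.14 for Ryr2 (adjusted p = 0.285) and -1.38 for Ryr3 (adjusted p = 0.187). In limma voom they were -5.58 (adjusted p = 0.276) and -5.71 (adjusted p = 0.272).

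**Figure D4:**
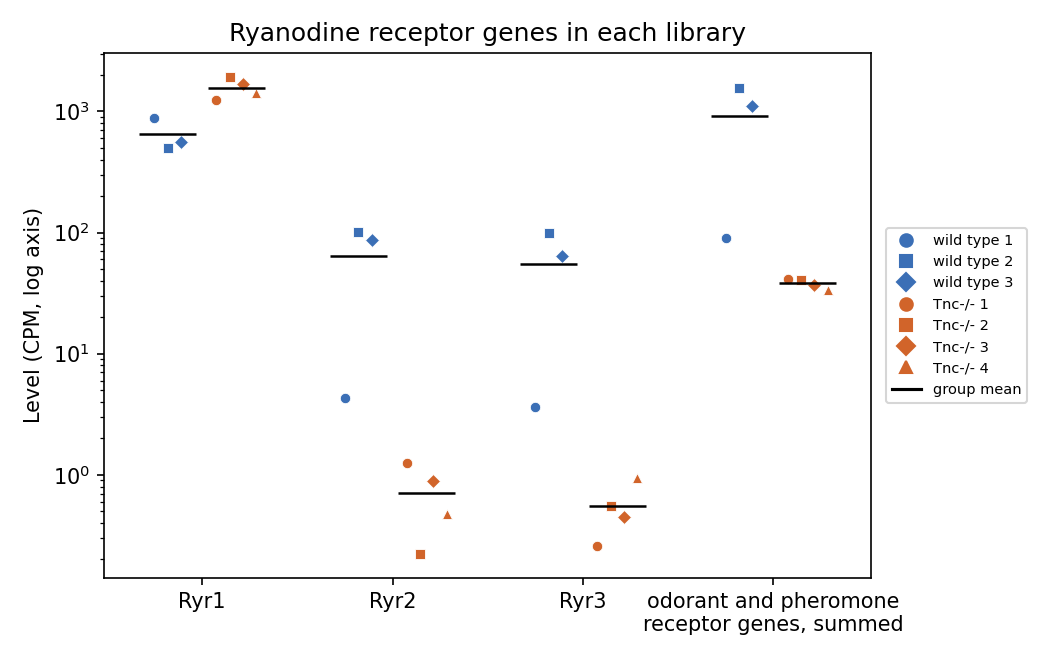
Level of the 3 ryanodine receptor genes in each library, and the summed level of 2010 odorant and pheromone receptor genes (per M of the unscaled total), in CPM on a log axis, with bars at the group means. Ryr2 and Ryr3 are high in the same 2 wild-type libraries, 2 and 3, as the receptor sum, whereas Ryr1 is higher in all 4 Tnc-/- libraries.

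The gene patterns most like the calcium list were looked for among the 12342 genes whose mean reached 5 CPM. Over the 7 libraries, the 5 with the highest Pearson r with the mean log2 CPM of the 10 genes were Tmod4 (0.989), Tpm2 (0.987), Gdf11 (0.986), Ldha (0.985) and Tpm1 (0.984). Tmod4 and the tropomyosins Tpm1 and Tpm2 are parts of the thin filament, Ldha is lactate dehydrogenase, and Gdf11 is a secreted growth factor. Gdf11 was a scarce message, at 10.6 to 18.9 CPM in the wild type and 15.1 to 23.7 CPM in Tnc-/-. With 7 points that share genotype and library, these values describe likeness only.

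**Figure D5:**
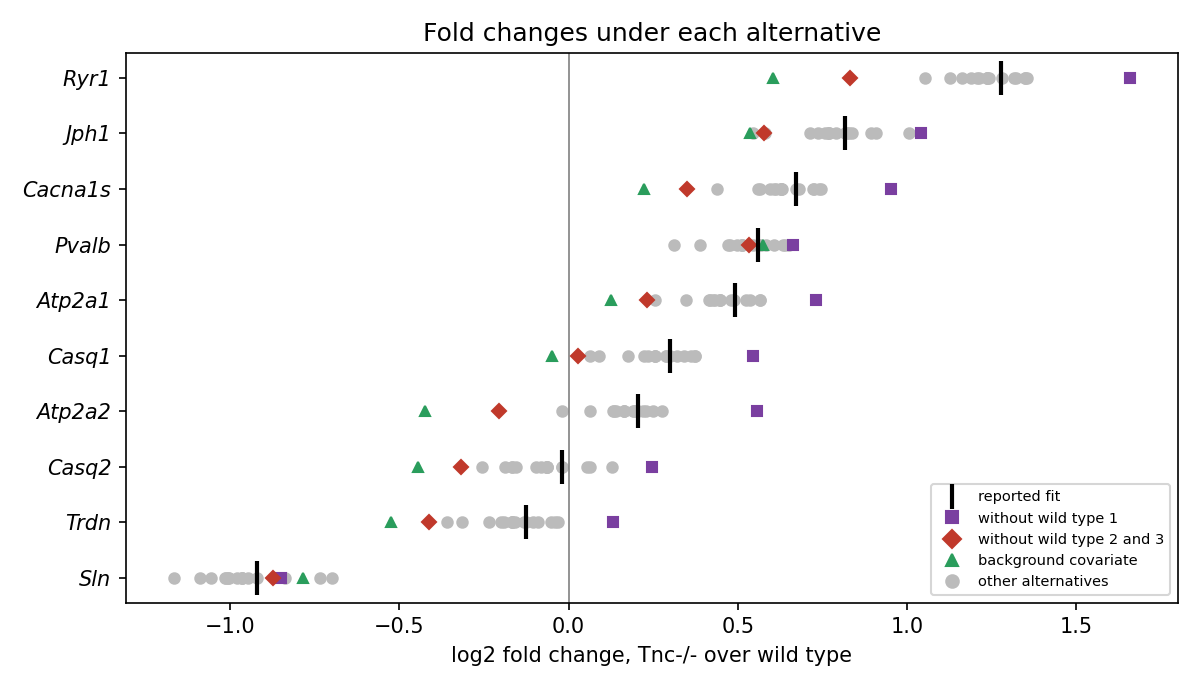
Log2 fold change of each calcium gene, Tnc-/- over wild type, in the reported fit (black bar) and in the alternatives: without wild-type library 1, without wild-type libraries 2 and 3, with the background covariate, and the others in grey. Ryr1 stays above 0 in every fit, from 0.61 to 1.66, and Sln below 0 in every fit, from -1.17 to -0.70, while Atp2a2, Casq1, Casq2 and Trdn fall on both sides of 0.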

How the data were processed

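Whole joints of 7 mice were profiled, and the labelled genotype gave the groups. Per the labels' protocols, poly(A) RNA was captured and the NEBNext Ultra kit was used for the libraries. The deposited values are the authors' raw counts of reads per gene, with a file for each library. The submitters' processing notes name FastQC 0.11.9, HISAT2 2.2.1, HTSeq 2.0.2, DESeq2 1.38.3 and the build GRCm39 (mm39), with no parameters; strand and annotation are not given in the sources used here. The wild-type files listed 56980 identifiers and the Tnc-/- files 56941, with 56854 in common. Rows naming no gene held 30.1 to 32.7% of the reads listed in the Tnc-/- files and 0% in the wild-type files, and were left out. No column of values was unmapped (0 columns).

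Counts were fitted in edgeR 4.0.16 (R 4.3.3) with filterByExpr, TMM, robust quasi-likelihood F tests and genotype as the 1 term, and p-values were adjusted by Benjamini-Hochberg over 17791 genes with a threshold of 0.05. The SE is the absolute log2 fold change over the square root of F. CPM are counts per M of the TMM-scaled library (M, mega). Values relative to fibre genes and ratios used a prior of 2 counts and exact two-sided permutation tests, which double the smaller tail, so that the smallest p over the 35 arrangements is 0.0571. The edgeR fit was tested on simulated counts with 1 dispersion of 0.05, no receptor background and no separate counting runs. All of 200 genes changed 4-fold (100%) among 17584 were recovered, and 0.0345% of the unchanged genes were called. Changes smaller than 4-fold and the background of the real libraries were not simulated, so the test does not cover them. Exon lengths, spans and overlaps came from GENCODE M21 (GRCm38) by identifier. No gene coordinates are given in the build of the count files, and the promoters with their coordinates are RefSeq's in GRCm38.p6.

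Genes named are the 10 of the list, called genes of the wider list (up to 6 in each direction by smallest p), the 3 most abundant fast and 2 most abundant slow fibre genes, and the 5 most alike in pattern. Actn3, Mybpc2, Tcap, Myl2, Pln, Strit1, Tnnc1, Tnnc2, Myh6, Tnnt2, Tnni3, Ncam1 and Alas2 were named after their values were seen. The calcium genes, lists and tests were chosen with earlier results of these data known. The labels give no pairing by replicate number. Correlations of the deviations of like-numbered libraries ran from -0.03 to 0.07, which cannot exclude a pairing, since the background weighs on the wild-type deviations. Alternatives were DESeq2 1.42.0 with 2 adjustments, limma 3.58.1 (voom), other scalings and filters, the replicate number as a block, a background covariate, and leaving out libraries. The fit without wild-type libraries 2 and 3, the comparison with wild-type library 1 alone and the fibre reference without Tnnc2 were chosen after seeing the data. With 3 and 4 mice, p-values measure the spread between libraries of different mice within each counting run. In the wild type that spread includes the receptor background that set libraries 2 and 3 apart from library 1.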

Additional observations from a re-analysis of the deposited data

Results flagged for a closer look

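Within the 4 Tnc-/- libraries, 3 of 24 values tested held a library far from the others by Dixon's criterion, which flags about 1 in 20 groups by chance. Atp2a2 was at 319 CPM in Tnc-/- library 1, below the other 3 libraries at 348 to 351 CPM, a gap of 0.902 of the group's range. Sln was at 9.18 CPM in Tnc-/- library 3, below the other 3 at 21.1 to 22.1 CPM, a gap of 0.927 of the range. Relative to the fast fibre genes, Atp2a2 was at -2.32 on the log2 scale in Tnc-/- library 2, the library with the highest fibre mean, below the other 3 at -1.84 to -1.76, a gap of 0.867 of the range. Without Tnc-/- library 3, the log2 fold change of Sln was -0.70 (edgeR adjusted p = 0.0606).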

How the results depend on the processing

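Of the 10 calcium genes, 5 passed the threshold with DESeq2 and Benjamini-Hochberg adjustment, 1 with DESeq2 and Bonferroni, 1 with limma voom, and 0 with the background covariate (0 at an unadjusted p under 0.05 in that edgeR fit) or without wild-type libraries 2 and 3 (2 at an unadjusted p). Leaving out 1 library gave 1 to 8, with 8 without wild-type library 1 and 1 (Ryr1) otherwise. The wider list gave 17, 2, 3, 0 and 2 calls under the same 5 settings in that order, 8 of 45 genes being at an unadjusted p under 0.05 in the covariate fit, and 2 to 27 with 1 library left out. Over all genes the calls were 6249 (35.1%) with DESeq2 and Benjamini-Hochberg, 1653 with DESeq2 and Bonferroni, 973 with limma voom, 399 with the background covariate, 825 without wild-type libraries 2 and 3, and 2229 to 14113 with 1 library left out. With the replicate number as a block (the numbers mark no pairing known from the labels), 1713 genes, 3 of the wider list and 2 of the 10 calcium genes, Ryr1 and Sln, were called. Signs turned for Atp2a2 with library totals (-0.019), the covariate (-0.43) and without wild-type libraries 2 and 3 (-0.21), for Casq1 with the covariate (-0.050), for Casq2 with no filter (0.055) and over single libraries left out (-0.17 to 0.25), and for Trdn without wild-type library 1 (0.13, range -0.31 to 0.13). The Pvalb difference from the fibre genes turned with summed CPM as the reference (0.0081), a pseudocount of 0.5 CPM (0.0049), no Tnnc2 (0.021) and single libraries left out (-0.19 to 0.14). The receptor background was higher in every wild-type library than in any Tnc-/- library. The covariate fit can therefore not fully separate background from genotype. The causes were not tested. Library totals moved the median of all genes to -0.24. The exact tests, which double the smaller tail, could not go below 0.0571.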

Other observations

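Another 6 genes of the voltage sensor and its junction, none of them past the threshold in the reported edgeR fit, had estimates on both sides of 0. Cacna2d1, Stac3, Cacnb1 and Hrc passed it in some other fits. Cacna2d1, Stac3 and Hrc did so with DESeq2 and Benjamini-Hochberg adjustment (35.1% of all genes called), Cacna2d1 also with library totals (30.9%). Stac3, Cacnb1 and Hrc did so without wild-type library 1 (64.2%). Stac3, an adaptor of the voltage sensor, was at 0.69 ± 0.24 on the log2 scale, Tnc-/- over wild type (SE; adjusted p = 0.0623, edgeR), Cacnb1, its beta subunit, 0.57 ± 0.21 (adjusted p = 0.0712), and Hrc, a calcium binder of the store, 0.61 ± 0.23 (adjusted p = 0.0730). Cacna2d1, the extracellular subunit of the sensor, was at -0.44 ± 0.16 (adjusted p = 0.0649), with all 4 Tnc-/- libraries below the wild type. For Stac3, Cacnb1 and Hrc the groups overlapped. Estimates near 0 were those of Cacng1, the gamma subunit, at 0.09 ± 0.14 (adjusted p = 0.666) and Asph, whose locus encodes junctin, at 0.01 ± 0.15 (adjusted p = 0.982), both with overlap. These 6 genes were chosen after their values were seen.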
